A study of Mus musculus with 2 samples.

Results

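The 9 genes Lck, Fyn, Zap70, Txk, Prkcq, Lat, Lcp2, Plcg1 and Vav1 encode the kinases, adaptors and effectors that act directly below the T cell antigen receptor. They were taken by name from 21938 protein-coding genes. Their open chromatin was described from all regions that lay in the gene body or within 20 kb on either side, which came to 119 of 67027 regions. Regions of both replicates that overlapped by at least 1 bp were joined, and a joined region that both replicates held is called shared.

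The regions are read here as accessible DNA mapped by ATAC-seq, which uses a transposase to cut and tag it. They came from primary mouse T helper 2 (Th2) cells of the strain C57BL/6NJ. Words in the region names may instead mean that inserts of a cloned library were sequenced, which the sources used here do not settle. Th2 cells are CD4 T cells that make type 2 cytokines. The study held 1 group of 2 biological replicates from 1 donor record, with no control, treatment or other cell type, and sex and age were not given. Whether the replicates came from different animals was not stated, so their spread may be only technical, and with 1 group there was no comparison of conditions to test.

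When a receptor binds antigen, the Src family kinases Lck and Fyn phosphorylate the CD3 and zeta chains, and the kinase Zap70 docks on the phosphorylated chains. Zap70 then phosphorylates the adaptors Lat and Lcp2 (SLP-76), on which phospholipase Plcg1 and the exchange factor Vav1 assemble. Tec family kinases, of which Txk is one, phosphorylate Plcg1. The diacylglycerol that Plcg1 makes activates Prkcq, the protein kinase C theta that leads to NF-κB, AP-1 and, with calcium, NFAT activity in T cells.

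The lists held 51458 regions in replicate 1 and 60784 in replicate 2 on the main chromosomes, with median counts at the summit (pileups) of 31 and 37. Of 6 T cell markers, the 5 that matched the annotation (Cd3e, Cd3d, Cd4, Cd5 and Cd6) and all of 5 Th2 markers (Gata3, Il4, Il13, Il5 and Ccr4) had a shared region at a start site. None of 5 B cell, 5 myeloid, 5 mast cell and basophil or 5 non-haematopoietic markers had one. Of 5 CD8 T and natural killer cell markers, Cd8b1 had one, with a fold enrichment of 3.08 in replicate 1 and 5.20 in replicate 2. In a bulk library, fewer cells with an open region and a less open region in each cell cannot be told apart.

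Of the 119 joined regions at the 9 genes, 87 (73.1%) were shared, against 65.7% of all joined regions. One region, in Prkcq intron 1, was listed in replicate 1 alone with a fold enrichment of 2.28. The other 31 were listed in replicate 2 alone, the list with more regions, and 24 of them were intronic. Over all joined regions, 6852 were listed in replicate 1 alone and 16117 in replicate 2 alone, so the split at the 9 genes was more one-sided. Those 31 were mostly weak, with a median fold enrichment of 3.23 (2.11 to 7.08), against 5.65 over the whole list of replicate 2. Their median width was 281 bp, against 509 bp over that list. The 87 shared regions had a median width of 736 bp, but each spans the regions of both replicates, which widens it. Fyn held 11 and Prkcq 7 of the 31, Zap70 and Lcp2 held 3 each, Plcg1 and Vav1 held 2 each, and Lck, Txk and Lat held 1 each.

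A region was classed as a start-site region when its edge lay within 1 kb of a coding start in the basic annotation, which leaves out some annotated transcripts, and otherwise by its centre. The shared regions comprised 12 start-site regions of the 9 genes, 45 in introns, 17 upstream, 10 downstream, 1 in an exon and 2 start-site regions of neighbours (Hdac1 and Spns1). Of the 45, 1 at Fyn and 1 at Zap70 lay within 1 kb of a start that is not in the basic annotation. At a −log10 q of at least 10 the shared regions numbered 53, with 26 in introns, and without replicate 1 the intronic regions numbered 71. Fold enrichment is the authors' value for each region, read here as the pileup plus 1 over the local background plus 1. Its median over the 87 regions was 4.90 in replicate 1 and 6.21 in replicate 2, against 6.19 and 7.08 over all shared regions. The replicates gave similar values at these genes, with a median ratio of replicate 2 to replicate 1 of 1.11 (0.723 to 1.82), and the median over all shared regions was also 1.11. Summits of the replicates lay a median of 39 bp apart at the 9 genes and 32 bp apart over all shared regions.

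**Figure D1:**
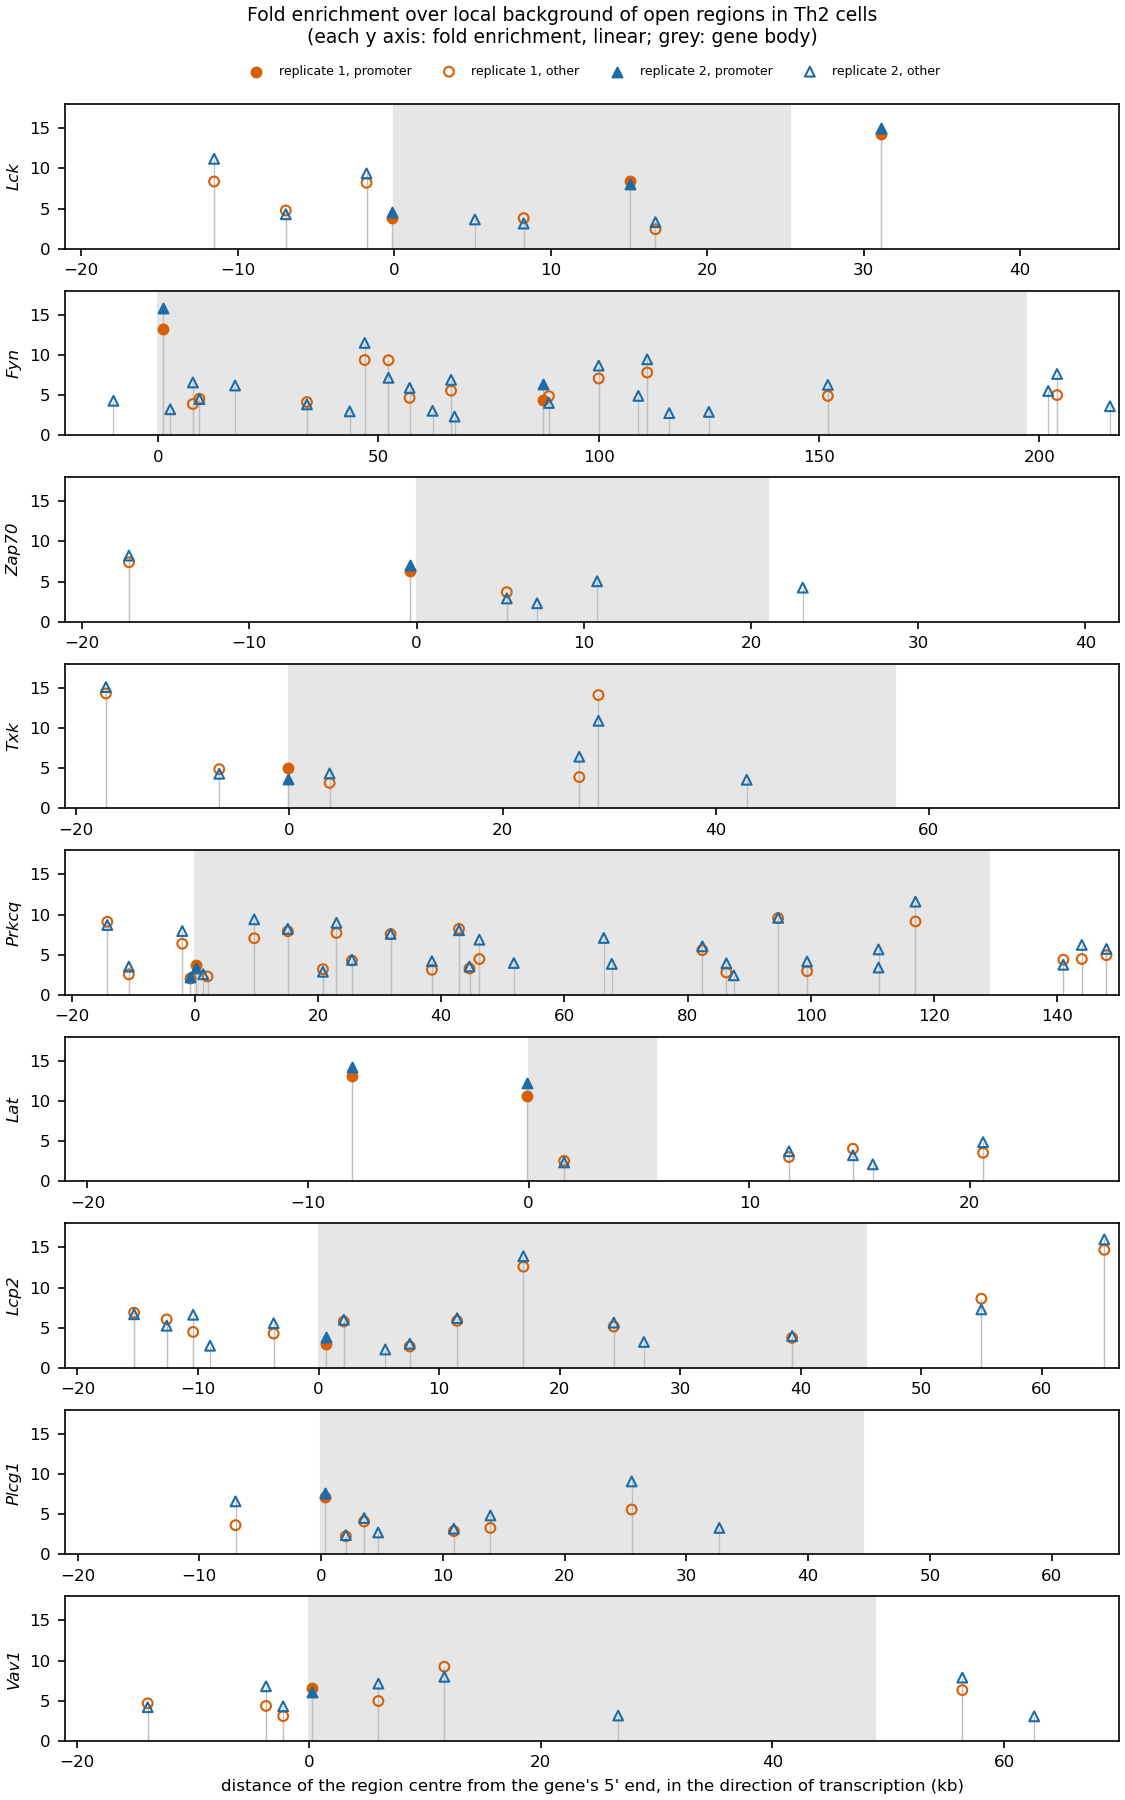
Fold enrichment (y axis, linear) of every region of both replicates at the 9 genes against the distance of its centre from the gene's 5′ end in kb (x axis), with the gene body in grey. Filled symbols mark start-site regions of the gene or a neighbour and open symbols all others. Prkcq has 23 shared regions and Zap70 has 3, and the highest values outside the start-site class lie at Txk and Lcp2.

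All 9 genes carried a shared start-site region, against 58.4% of all protein-coding genes. With the lists limited to regions with a −log10 q of at least 10, 7 of the 9 did. Txk and Lcp2 did not. The 58.4% holds for the full lists, and no share of all genes at this limit stands beside the 7. By fold enrichment the 12 start-site regions of the 9 genes mostly lay below those of other genes. Their median was 5.72 in replicate 1 and 6.22 in replicate 2, against 9.10 and 10.2 over all 12542 shared start-site regions. In each replicate 10 of the 12 lay below the median of all. Fyn and Lat stood above it, with 13.2 and 15.8 at Fyn and 10.6 and 12.2 at Lat in replicates 1 and 2. The local background was higher at the 12 regions, with medians of 13.4 and 16.5 against 7.40 and 9.37 over all, and this lowers a fold enrichment at a given pileup. Median pileups were 67.0 and 85.5 at the 12 regions against 77.0 and 107 over all, a smaller gap than in fold enrichment. The part of the background in the difference was not tested.

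Start sites of protein-coding transcripts of the comprehensive annotation that lay within 500 bp of each other were grouped, which gave 18 groups at the 9 genes. A shared region lay within 1 kb of 14 of the 18 groups, against 45.5% of groups over all genes. The most 5′ group had one in 9 of 9 genes. Of the later groups, which stand for alternative promoters, 5 of 9 had one, against 26.8% of later groups over all genes. Among the 5, Fyn start 2 had the same region as Fyn start 1, which is not in the basic annotation. A shared region covered the start in 3 of the 9 later groups. Fyn start 5, Txk start 2, Prkcq start 2 and Plcg1 start 2 had none, and their nearest shared regions lay 8.40, 10.7, 8.34 and 2.98 kb away.

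**Figure D2:**
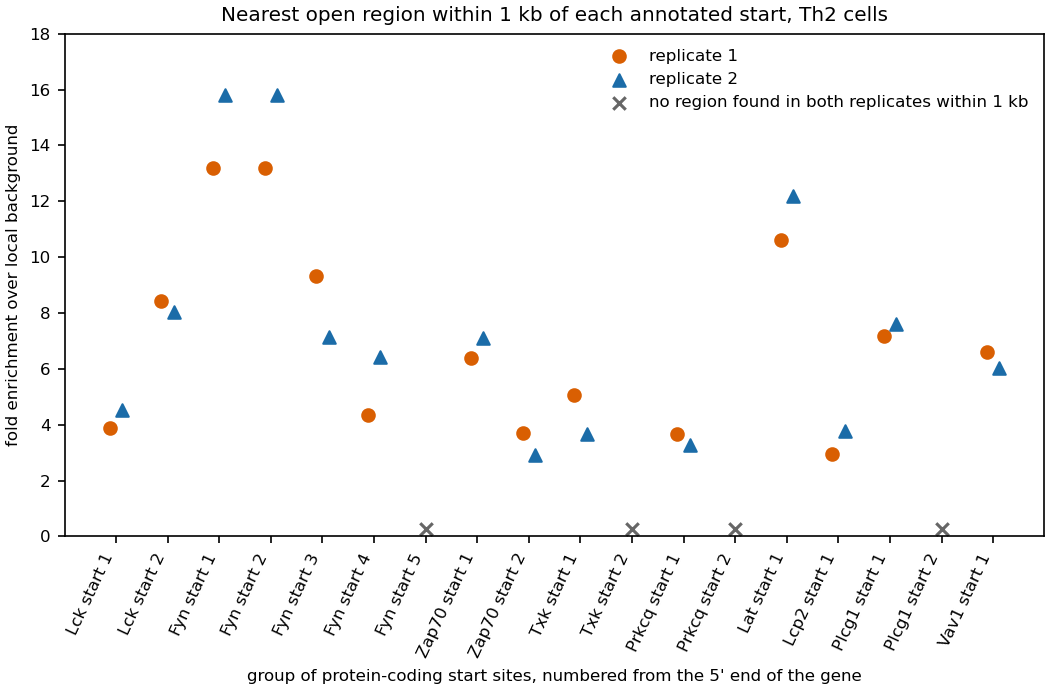
Fold enrichment (y axis) of the nearest shared region within 1 kb of each of the 18 groups of coding start sites (x axis, numbered from the 5′ end of each gene), with circles for replicate 1 and triangles for replicate 2. Crosses at the foot mark the 4 groups with no shared region within 1 kb, and the highest values, 13.2 and 15.8, belong to the region that Fyn starts 1 and 2 share.

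Lck, at chr4:129548344-129573641 on the minus strand, had shared regions over both of its annotated promoters. In mice the upstream, distal promoter is known to be active in mature T cells as well as thymocytes, and the downstream, proximal promoter mainly in thymocytes. The proximal region covered a start site 15250 bp downstream of the 5′ end, in intron 1 of the long transcript, with a fold enrichment of 8.43 in replicate 1 and 8.02 in replicate 2. The distal region covered the 5′ end, with 3.88 in replicate 1 and 4.53 in replicate 2. By fold enrichment the proximal region was thus 2.17 and 1.77 times the distal one. By pileup the order turned in replicate 2, with ratios of 1.16 in replicate 1 and 0.745 in replicate 2. The proximal pileups were 72 (95% exact Poisson interval 56.3 to 90.7) and 73 (57.2 to 91.8), and the distal ones 62 (47.5 to 79.5) and 98 (79.6 to 119). These intervals overlap in each replicate, and the local background was 7.66 and 8.23 at the proximal region against 15.2 and 20.9 at the distal one.

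The bases just before each Lck start site are shown because a shared region covered both starts. Capitals mark motif matches, which in these sequences are ETS (GGAAGT), RUNX (TGTGGT), E protein (CAGGTG) and GC box (GGGCGG) letters on either strand. The proximal sequence holds 2 CpG and the distal sequence none. The proximal summits lay at -214 and -232 bp from the start, outside the printed bases. In a 200 bp window at the summit, the proximal region held 2 CpG and no match to any of 9 motifs searched. The distal region held 7 CpG there, with ETS, RUNX and E protein matches.
Lck proximal, 150 bases, mm10 chr4:129558392-129558541, minus strand: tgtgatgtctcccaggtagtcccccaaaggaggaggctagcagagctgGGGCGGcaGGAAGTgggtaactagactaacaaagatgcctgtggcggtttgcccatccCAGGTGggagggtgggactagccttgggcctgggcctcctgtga
Lck distal, 150 bases, mm10 chr4:129573642-129573791, minus strand: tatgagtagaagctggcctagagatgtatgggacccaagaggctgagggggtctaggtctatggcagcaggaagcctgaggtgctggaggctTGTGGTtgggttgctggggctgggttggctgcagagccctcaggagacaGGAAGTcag

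Upstream of Lck, shared regions lay at -1.76, -6.92 and -11.5 kb from the 5′ end. Another coding gene, Fam167b, starts 6.6 kb from the region at -11.5 kb and 2.02 kb from that at -6.92 kb. Both are nearer to that start than to the Lck 5′ end, so distance alone does not assign them to Lck. The region at -11.5 kb had 8.37 and 11.2, and that at -1.76 kb had 8.21 and 9.38. Both exceeded the distal promoter in fold enrichment in each replicate, and so did the region at -6.92 kb in replicate 1 alone, with 4.76 and 4.29. The 2 shared regions in introns were weaker, with 3.80 and 3.13 in intron 1 and 2.42 and 3.31 in intron 5. The region centred in intron 5 was 787 bp wide and ran past that intron, which is 286 bp long. The strongest region in the Lck window, with 14.3 and 15.0, lay at the start site of the neighbouring histone deacetylase gene Hdac1.

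Fyn, at chr10:39368855-39565381 on the plus strand, is a long gene of 197 kb and had 14 shared regions. One region, 1306 bp wide, lay near starts 1 and 2 and covered start 2, with a fold enrichment of 13.2 in replicate 1 and 15.8 in replicate 2, which were the highest of any start-site region of the 9 genes. Start 3, at 51.2 kb, had a region of 9.34 and 7.15 that began 735 bp away, and start 4, at 86.0 kb, had a region of 4.35 and 6.41 that began 910 bp away. Neither of those regions covered the start site it was nearest to, and the region near start 3, which is not in the basic annotation, was classed as intronic. Start 5, at 143 kb, had none within 1 kb.

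Of the 14 Fyn regions, 2 were classed as start-site regions, 11 as intronic (2 in intron 1, 5 in intron 2, 3 in intron 3 and 1 in intron 5) and 1 as downstream. The highest intronic value in both replicates, 9.37 and 11.5, was at 46.9 kb in intron 2. The next highest was the region at 52.3 kb in replicate 1, with 9.34, and a region at 111 kb in intron 3 in replicate 2, with 9.45. Intron 4 and introns 6 to 13 held no shared region. Fyn start 2, shown because it underlies the strongest promoter, had 12 CpG in the 150 bases before it. The median over 15607 start groups with a shared region was 10 (25th to 75th percentile 5 to 15). The Fyn bases also held a TCF and LEF match (CTTTGA) and a GC box.
Fyn start 2, 150 bases, mm10 chr10:39369614-39369763, plus strand: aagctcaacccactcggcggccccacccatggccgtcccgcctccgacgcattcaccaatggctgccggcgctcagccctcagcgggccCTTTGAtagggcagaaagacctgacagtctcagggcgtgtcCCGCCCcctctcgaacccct

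Zap70, at chr1:36761798-36782818 on the plus strand, had the fewest shared regions of the 9 genes, with 3. Its promoter region was 1795 bp wide, with 6.38 in replicate 1 and 7.12 in replicate 2, and its summit lay upstream of the start site at -610 bp in replicate 1 and -609 bp in replicate 2. A region in intron 1, with 3.69 and 2.90, covered start 2, which is not in the basic annotation, and was classed as intronic. The third, at -17.2 kb, had 7.41 and 8.24 and lay in exon 7 of the neighbouring gene 4933424G06Rik. Another 3 regions, 2 in introns and 1 downstream, were listed in replicate 2 alone, with 2.30, 5.04 and 4.25.

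Txk, at chr5:72695978-72752777 on the minus strand, had a small promoter region and strong regions elsewhere. The promoter region was 279 bp wide, with a fold enrichment of 5.06 in replicate 1 and 3.65 in replicate 2 and a pileup of 24 in both. In intron 6, 29.0 kb from the 5′ end, a region had 14.1 and 10.9. Another at -17.2 kb had 14.3 and 15.1, at percentiles 97.6 and 96.8 of the lists. That region lay in intron 11 of Tec, the neighbouring gene of the same kinase family, so distance alone does not assign it to Txk. Intron 5 had a region of 3.88 and 6.42 and intron 1 one of 3.16 and 4.34, and a further region in Tec at -6.57 kb had 4.87 and 4.30.

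The Txk promoter sequence is shown beside that of the region at -17.2 kb because the weaker of the regions is the promoter. Neither printed sequence holds a match to any of the 9 motifs searched. The 200 bp window at the promoter summit did hold an ETS match. CpG numbered 1 in the printed promoter sequence and 5 in the distant one.
Txk start 1, 150 bases, mm10 chr5:72752778-72752927, minus strand: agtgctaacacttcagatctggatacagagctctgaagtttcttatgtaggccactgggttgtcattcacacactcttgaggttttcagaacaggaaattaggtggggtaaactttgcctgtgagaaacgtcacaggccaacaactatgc
Txk region at -17.2 kb, 150 bases at the summit, mm10 chr5:72769968-72770117, minus strand: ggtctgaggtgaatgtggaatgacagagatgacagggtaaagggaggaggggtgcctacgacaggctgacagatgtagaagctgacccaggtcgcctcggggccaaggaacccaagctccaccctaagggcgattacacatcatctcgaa

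Prkcq, at chr2:11172108-11301222 on the plus strand, had the most shared regions, 23, at percentile 99.8 of all protein-coding genes, and 13.6 per 100 kb of window, at percentile 97.7. Its promoter was among the weakest. The region over the start site had 3.65 in replicate 1 and 3.29 in replicate 2, and a region at -0.766 kb had 2.13 and 2.19, at percentiles 0.223 and 0.522 of the lists. The 15 intronic regions included 10 in intron 1, which is 54.4 kb long, and the rest lay in introns 10, 11, 12 and 15. The strongest were in intron 15, with 9.13 and 11.6, and in intron 12, with 9.55 and 9.59. In intron 1 the highest pileups were 145 and 251, at 23.0 kb from the 5′ end, where the fold enrichment was 7.70 and 8.96. Upstream lay 3 regions, the strongest at -14.2 kb with 9.09 and 8.69, and 3 lay downstream. Start 2, at 54.8 kb, had no shared region within 1 kb.

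Lat, at chr7:126363824-126369570 on the minus strand, is the shortest of the 9 genes, at 5.75 kb, and its promoter region was the strongest after that of Fyn. The region, 1049 bp wide, had 10.6 in replicate 1 and 12.2 in replicate 2. No shared region was intronic, and the only exonic region at the 9 genes lay in Lat exon 8, with 2.54 and 2.35. Downstream lay 3 weak regions, with 3.02 and 3.74, 4.05 and 3.24, and 3.55 and 4.88. A region of 13.1 and 14.3 at -8.01 kb lay at the start site of Spns1, a lysosomal transporter gene.

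Lcp2, at chr11:34046920-34092295 on the plus strand, had 13 shared regions and the highest density of the 9 genes, 15.2 per 100 kb. Its promoter region was weak, with 2.96 in replicate 1 and 3.79 in replicate 2, and lay 3′ of the most upstream start, with summits at +296 and +471 bp. The 6 intronic regions included 1 of 12.6 and 13.9 in intron 3, 17.0 kb from the 5′ end. The strongest region at the 9 genes outside the start-site class was downstream of Lcp2, at 65.2 kb from the 5′ end, with 14.7 and 16.0, at percentiles 98.3 and 98.2 of the lists. The nearest start site of another coding gene, 4930469K13Rik, was 13.6 kb from that region, so distance alone does not assign it to Lcp2. Lcp2 and the 4 shared regions upstream of it lie within the span of 4930469K13Rik, which runs on the opposite strand.

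The Lcp2 promoter and the downstream region are shown for what their shared window holds. It has the lowest of the 9 genes' strongest promoter values in replicate 1 and the strongest distant region. Neither printed sequence holds a CpG. The promoter bases lie just before start 1, upstream of the shared promoter region and outside it. In a 200 bp window at its summit, that region held 4 CpG and no match to any of the 9 motifs. The promoter sequence has letters of GATA factors (AGATAA), NFAT (GGAAAA) and TCF and LEF, and the downstream one an AP-1 match (TGANTCA).
Lcp2 start 1, 150 bases, mm10 chr11:34046770-34046919, plus strand: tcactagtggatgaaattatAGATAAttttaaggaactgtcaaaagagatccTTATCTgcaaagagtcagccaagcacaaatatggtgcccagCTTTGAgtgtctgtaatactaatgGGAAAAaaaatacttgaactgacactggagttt
Lcp2 region at 65.2 kb, 150 bases at the summit, mm10 chr11:34112078-34112227, plus strand: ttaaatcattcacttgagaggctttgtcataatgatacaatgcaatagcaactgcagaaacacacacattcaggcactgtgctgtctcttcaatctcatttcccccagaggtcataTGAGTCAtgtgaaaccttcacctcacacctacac

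Plcg1, at chr2:160731300-160775760 on the plus strand, had 7 shared regions. The promoter region, 1351 bp wide, had 7.19 in replicate 1 and 7.61 in replicate 2. Intron 2 held 4 regions, of 2.25 to 4.09 in replicate 1 and 2.39 to 4.84 in replicate 2. A region of 5.58 and 9.08 was centred in intron 22. It was 629 bp wide and ran past that intron, which is 225 bp long, and its centre also lay within the span of the gene Zhx3. The region at -7.03 kb differed most between the replicates of all 87, with 3.63 and 6.60, a ratio of 1.82. Start 2 lay 2.98 kb from the intron 22 region.

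Vav1, at chr17:57279100-57328031 on the plus strand, also had 7 shared regions. The promoter region had 6.59 in replicate 1 and 6.04 in replicate 2. Both intronic regions lay in intron 2, which is 16.6 kb long, with 4.96 and 7.13 at 6.01 kb and 9.24 and 7.98 at 11.7 kb. Upstream lay 3 regions, at -13.9, -3.69 and -2.21 kb, with 4.67 and 4.19, 4.35 and 6.80, and 3.08 and 4.30. A region 1938 bp wide lay downstream at 56.4 kb, with 6.32 and 7.88.

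The promoter sequences of Plcg1 and Vav1 are shown as examples that hold a GC box. CpG numbered 15 and 5. The intron 2 region of Vav1 is shown because its summit window held ETS, RUNX and AP-1 matches.
Plcg1 start 1, 140 bases, mm10 chr2:160731160-160731299, plus strand: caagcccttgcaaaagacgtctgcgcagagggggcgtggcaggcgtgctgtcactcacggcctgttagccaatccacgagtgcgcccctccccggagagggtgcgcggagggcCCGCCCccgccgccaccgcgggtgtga
Vav1 start 1, 150 bases, mm10 chr17:57278950-57279099, plus strand: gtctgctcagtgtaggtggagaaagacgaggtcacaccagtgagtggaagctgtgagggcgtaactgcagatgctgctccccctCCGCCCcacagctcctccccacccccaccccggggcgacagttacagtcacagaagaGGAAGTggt
Vav1 region at 11.7 kb, 150 bases at the summit, mm10 chr17:57290788-57290937, plus strand: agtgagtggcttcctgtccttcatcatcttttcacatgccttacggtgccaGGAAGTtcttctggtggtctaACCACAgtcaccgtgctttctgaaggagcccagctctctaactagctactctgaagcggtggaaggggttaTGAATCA

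Of the 159 introns of the 9 genes, 22 held a shared region. Introns 1 to 3 held 33 of the 45 intronic regions (73.3%) and made up 56.5% of the intron length. Intronic regions had a median fold enrichment of 4.86 (2.25 to 14.1) in replicate 1 and 6.03 (2.39 to 13.9) in replicate 2, against 5.52 and 6.30 over all shared regions outside the start-site class. At Zap70, Txk, Prkcq, Lcp2 and Vav1, 5 of the 9 genes, the strongest shared region outside the start-site class had a higher fold enrichment than the strongest start-site region in both replicates. At Lck and Plcg1 it was higher in replicate 2 alone, and at Fyn and Lat the start-site region was higher in both. Each gene had more shared regions outside the start-site class than in it, which favours a higher maximum there. The same count over all genes was not made. At Zap70 and Txk the strongest region outside the class lay inside a neighbouring gene, and at Plcg1 it lay within both Plcg1 and the gene Zhx3.

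The 9 genes had a median of 7 shared regions in their windows, against 2 (25th to 75th percentile 1 to 4) over all protein-coding genes. They were also longer, with a median of 45.4 kb against 17.4 kb, and longer windows hold more regions. Per 100 kb of window the median was 8.29 against 3.42. The density ran from 4.92 at Zap70, 5.92 at Fyn, 6.20 at Txk, 7.87 at Vav1 and 8.29 at Plcg1 to 12.3 at Lck, 13.1 at Lat, 13.6 at Prkcq and 15.2 at Lcp2. Fyn, the longest, thus had the second most regions and the second lowest density.

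**Figure D3:**
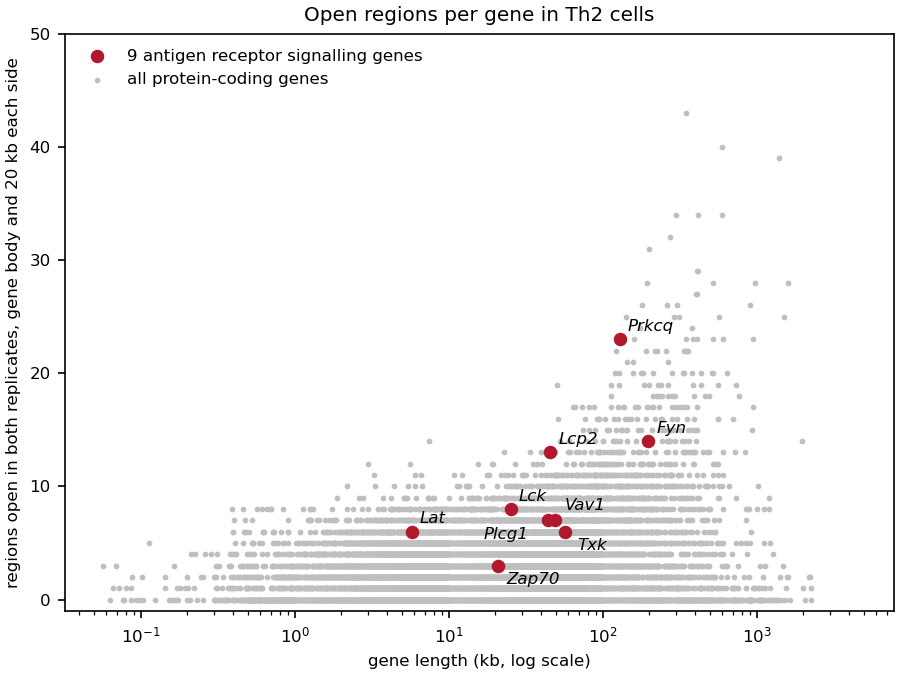
Count of shared regions in each gene's window, the gene body with 20 kb flanks (y axis), against gene length in kb (x axis, log scale) for the 9 genes in red and all protein-coding genes in grey. Prkcq reaches 23, Fyn 14 and Lcp2 13, and Zap70, with 3, lies lowest of the 9.

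In a 200 bp window at the summit, the 12 start-site regions had a median of 5 CpG and a GC content of 60.0%, against 17 CpG and 65.5% over all shared start-site regions. Of the 12, 7 had 0 to 5 CpG, a range that took in 10.9% of all start-site regions. Within that range the median fold enrichment was 5.06 in replicate 1 and 6.41 in replicate 2 at the 7 regions, against 5.59 and 6.25 over all 1367. The 1 region with 6 to 10 CpG had 3.88 and 4.53, against 7.82 and 8.83 over all. The 3 with 11 to 20 CpG had medians of 6.59 and 6.04, against 9.9 and 11.2, though Fyn, among them, had 13.2 and 15.8. The 1 with over 20 CpG had 7.19 and 7.61, against 9.49 and 10.7. The part of CpG content in the fold enrichment was not tested. The GC box was found in 2 of the 12 (16.7%), against 58.5% of all. The 73 shared regions outside the start-site class were close to the rest of the series, with a median of 2 CpG against 2 and a GC content of 48.5% against 48.0%.

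The 9 motifs were searched on both strands, and overlapping matches of different motifs were each counted. Their letters were TGANTCA for AP-1, GGAAGT for ETS factors, TGTGGT for RUNX factors, AGATAA for the GATA family and GGAAAA for NFAT proteins. The others were CTTTGA for TCF and LEF, CAGGTG for E proteins, TTCNNNGAA for STAT proteins and GGGCGG for the GC box. In those 73 regions, AP-1 letters were in 27.4% against 28.9% of all such regions, ETS in 20.5% against 22.1%, RUNX in 21.9% against 22.6% and GATA in 8.22% against 11.6%. TCF and LEF letters were in 17.8% against 17.3% and the GC box in 8.22% against 8.02%. NFAT letters were in 8 of the 73 regions against 13.8%, and E protein letters were in 19.2% against 14.7% and STAT in 17.8% against 12.6%. Before coding start groups with a shared region, 150 bases held ETS letters in 15.3%, RUNX in 5.98%, GATA in 2.94%, NFAT in 10.6%, TCF and LEF in 5.92%, E protein in 9.65% and the GC box in 49.5%. In windows of 150 bases at the summits of all shared regions outside the start-site class, AP-1 letters were in 25.7%, ETS in 17.9% and RUNX in 18.2%. These are matches of letters and not measured binding.

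The 41 other genes of the pathway were read in the same way, and 41 of 41 had a shared start-site region, with 58.4% of all genes as the background. They comprised 7 receptor genes, 15 positive and 19 negative regulators. The strongest start-site region of a gene had a median fold enrichment of 6.59 in replicate 1 and 7.12 in replicate 2 over the 9 genes, and of 7.16 and 8.14 over the 41. The median number of shared regions per window was 7 (3 to 23) over the 9 genes and 8 (2 to 18) over the 41. Among those with most were the receptor phosphatase gene Ptprc (CD45), with 18, the adaptors Fyb and Sla, with 16 each, and the ubiquitin ligase Cblb, a brake on antigen receptor signalling, with 15.

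Paralogues of the 9 genes, several of which serve other cell types or receptors, differed in promoter state. With 58.4% of all protein-coding genes as the background, 15 of the 20 had a shared start-site region. Among them were all 5 protein kinase C genes (Prkca, Prkcb, Prkcd, Prkce and Prkch), Vav2, Vav3, Plcg2, Syk, Src, Yes1, Lyn and Fgr. Blk and Btk, kinases of B cell receptor signalling, the Tec family kinase Bmx and the adaptors Clnk and Lat2 had none, while Blnk, the B cell counterpart of Lcp2, had a weak one of 3.33 and 3.84. Zap70, with 6.38 and 7.12, and its relative Syk, with 6.98 and 5.40, changed order between the replicates. The paralogues had a median of 3.5 shared regions (0 to 28), with the protein kinase C gene Prkch at 28.

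**Figure D4:**
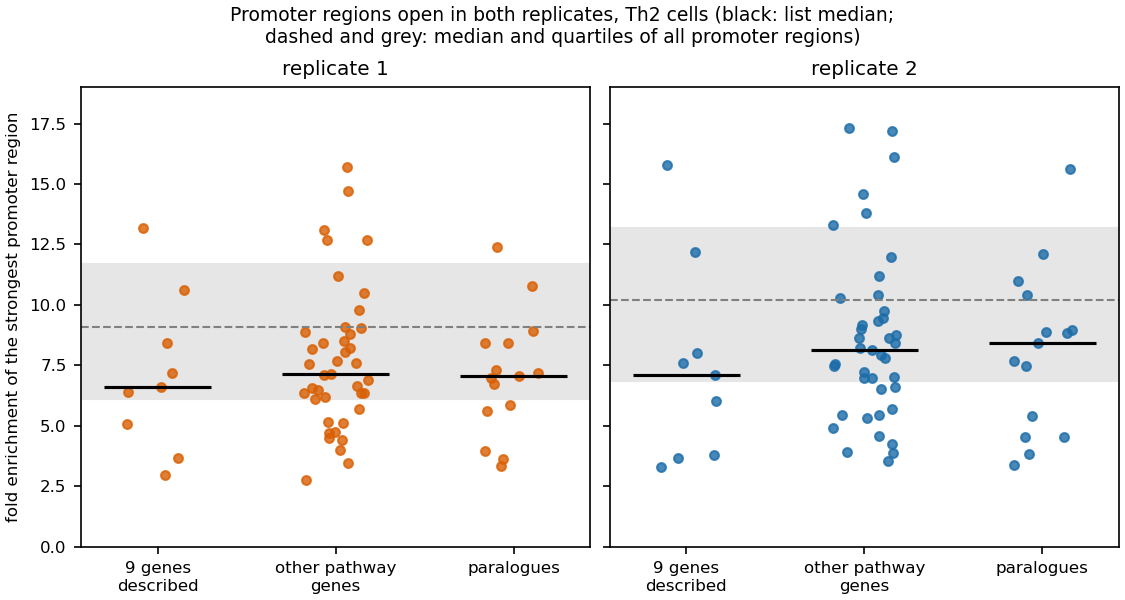
Fold enrichment of the strongest shared start-site region of each gene (y axis), by gene list (x axis), with replicate 1 on the left and replicate 2 on the right. Black bars are list medians (6.59 and 7.12 for the 9 genes), and the dashed line and grey band are the median (9.10 and 10.2) and quartiles of all shared start-site regions.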

How the data were processed

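Each list held regions of 1 library on mm10, per the file headers, so regions were called per replicate. The authors deposited a fold enrichment (a ratio to local background), a −log10 p-value, a −log10 q-value and a score per region, and the score was not used. How reads were aligned, shifted and turned into regions is not given in the sources used here. Region names carry words that may mean that inserts of a cloned library were sequenced; if so, the fold enrichments would measure those inserts.

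Pileup and local background were computed from each fold enrichment and p-value under a Poisson model with a pseudocount of 1, and whole-number pileups met a tolerance of 0.001 in −log10 p for 51458 of 51458 and 60783 of 60784 regions. Read depth is unknown, and intervals cover counting error only. The solver was tested on simulated data.

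Genes came from the GENCODE M21 annotation of GRCm38 and sequences from the RefSeq assembly of that build. Start-site regions had an edge within 1 kb of a coding start of the basic set, and other regions were classed by centre. Groups of start sites came from the comprehensive set. Printed sequences are the bases before a start site or at a summit, without annotated exons. They were shown for those members whose values they bear on. All 9 members, the 5 pathway genes with most regions (ties all taken) and every paralogue were to be named, and some genes that this rule takes are left out of the text. The members and lists were chosen with earlier results of these data known, so no list was tested. Most counts at the main settings stand beside those over all genes. Python 3.11.15, pandas 2.3.3, numpy 2.4.6, scipy 1.17.1, pysam 0.24.0 and matplotlib 3.10.9 were used.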

Additional observations from a re-analysis of the deposited data

How the results depend on the processing

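Shared regions at the 9 genes numbered 87, and 53 at a −log10 q of at least 10, 57 in gene bodies alone and 151 with 100 kb on each side. Intronic shared regions numbered 45, and 26 at a −log10 q of at least 10. The median per gene was 7, and 4 in gene bodies alone and 17 with 100 kb on each side. Regions of 1 replicate alone numbered 32, and 55 with 100 kb on each side. With 1 replicate left out, intronic regions ranged from 45 to 71, shared regions from 88 to 121 and the median per gene from 7 to 9. The strictest setting left 7 of 9 genes with a start-site region, and the other settings left 9. No share of all genes at the changed settings stands beside these counts. The counts for other pathway genes (36 to 41), paralogues (12 to 17) and start-site groups (11 to 14) stayed within 1.5 times their values as reported. Joining at 50% of the shorter region changed none of the 8 counts. No paired analysis was possible because there was 1 group. Weak regions are limited by counts: the 31 regions of replicate 2 alone had a median pileup of 26.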
